A study of Mus musculus with 12 samples.

Results

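Of the 12 cerebellar arrays of this series, 8 had a log2 Ttr level above 11 and 4 a level below 9, and the 2 classes of array are compared here. Ttr encodes transthyretin, the thyroxine and retinol carrier that the choroid plexus secretes into the cerebrospinal fluid. The class of an array was set by the Ttr probe set with the highest mean over all arrays, so the classes were made from measured values. Every high against low difference below is therefore a description with its standard error, and no test was made of it.

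Cerebellar total RNA came from mice 6 weeks old on a C57BL/6 background, with 3 mice in each of 4 groups. The groups were mice of the genotype MPI 11Q/11Q, mice of the genotype MPI 118Q/118Q and the wild type littermates of each line. The knockin allele of this Sca6 model lies in Cacna1a, the gene for the channel-forming protein of P/Q-type calcium currents, and carries 11 or 118 glutamine codons. RNA of every sample had an integrity number above 5.0. Values are log2 levels per probe set after RMA, a method that corrects background and summarises the probes of a set. Array medians were 2.21 to 2.38, and dim probe sets lie lower on this scale than RMA commonly places them. The background step behind that is not given in the sources used here, so the size of a difference is uncertain where the low arrays read near the bottom of the scale, as for Kl, Kcne2, Aqp1 and Calml4. Of 45101 probe sets, 27060 stayed after the 40% with the lowest mean were removed (log2 mean up to 1.58), and the brightest probe set of each gene symbol gave 12672 genes.

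The choroid plexus is a frond of epithelium over a leaky capillary core that lies in the brain ventricles, and in the hindbrain it fills the roof of the fourth ventricle next to the cerebellum. Its epithelial cells make cerebrospinal fluid by moving ions and water, carry vitamins and hormones, and form tight junctions that separate blood from fluid. Ttr, Kl, Folr1, Kcnj13 and Clic6 are markers of this epithelium. In bulk tissue, fewer cells of a type and less RNA per cell cannot be told apart.

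Ttr stood near the top of the scale in the high class and was spread over a wide range in the low class. Among the 8 high arrays its lowest level was 11.39, its median 11.85 and its highest 11.93, which ranked it 2 to 4 among all probe sets of an array. The 4 low arrays read 5.26 (11Q knockin replicate 2), 6.25 (wild type of the 118Q line, replicate 2), 7.68 (11Q knockin replicate 1) and 8.66 (118Q knockin replicate 3), at ranks 757 to 9468. No array lay between 8.66 and 11.39, the values just outside and just inside the classes. In the high arrays this Ttr probe set read only 0.048 to 0.45 below the brightest probe set of the same array. Its upper end is thus close to the top of the measured scale. Another Ttr probe set was itself the brightest on wild type 11Q replicate 2 (11.96), wild type 118Q replicate 1 (12.09) and 118Q knockin replicate 1 (11.84). The class means were 11.80 ± 0.17 (SD, n = 8) and 6.96 ± 1.50 (SD, n = 4).

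The classes cut across the labelled groups unevenly. All 3 wild type arrays of the 11Q line were high, while 1 of 3 arrays of the 11Q knockin was. Each group of the 118Q line held 2 high arrays and 1 low array. With the 4 groups in the model, only the 9 arrays of the 3 mixed groups inform the high against low difference. The labels name 3 mice in each group and say no more of their source, so errors cover the spread between these samples.

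The other markers split the arrays in the same places. Kl, the hormone co-receptor klotho, read 4.15 to 5.87 with a median of 4.72 in the high arrays and 0.77, 0.55, 0.79 and 1.03 in the low arrays, all under the filter's level of 1.58. Folr1, the folate receptor of the epithelium, read 4.81 to 6.11 (median 5.25) against 1.93, 1.26, 2.23 and 2.45. Kcnj13, an inward rectifier potassium channel, read 5.54 to 7.12 (median 5.94) against 3.70, 2.58, 2.81 and 3.07. Clic6, a chloride intracellular channel protein, read 5.34 to 7.03 (median 6.17) against 3.99, 3.62, 3.71 and 3.33. The low values are given in the order of 11Q knockin replicates 1 and 2, wild type 118Q replicate 2 and 118Q knockin replicate 3. The lowest high array was above the highest low array for each of these markers. The mean of the 4 markers other than Ttr left a gap from 2.60 to 5.07 and put every array in the class that Ttr gave it. The array with the most Ttr among the low arrays, 118Q knockin replicate 3, had the lowest Clic6 of all 12, so the order within the low class was not the same for every marker.

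**Figure D1:**
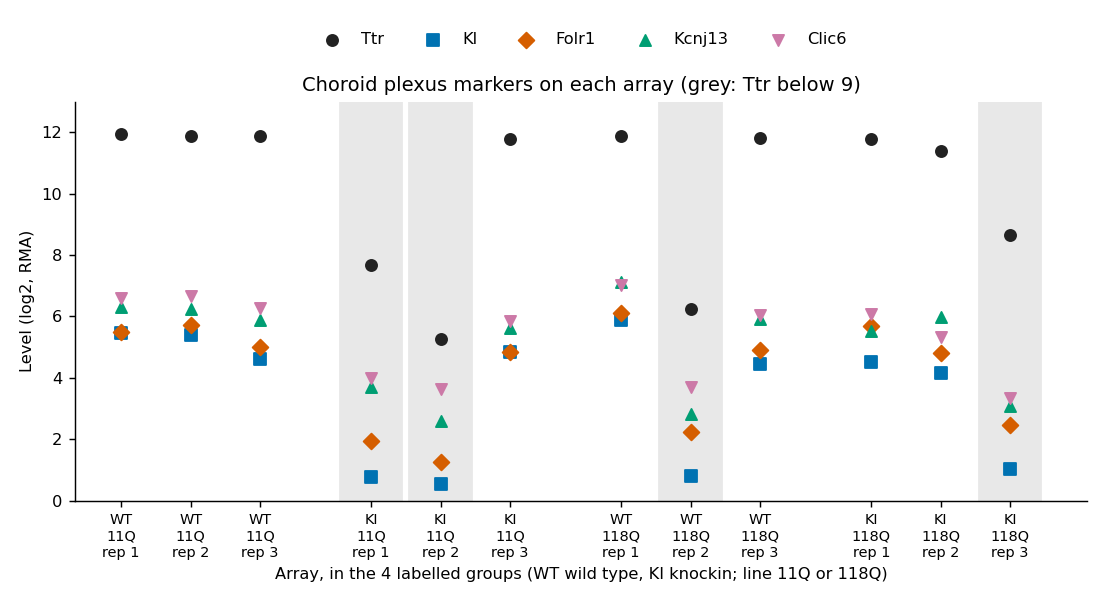
Log2 level after RMA (y axis) of the 5 choroid plexus markers on each of the 12 arrays (x axis, ordered by labelled group), with the 4 arrays of low Ttr shaded in grey. Ttr lies at 11.39 to 11.93 on the unshaded arrays and at 5.26 to 8.66 on the shaded ones, and Kl, Folr1, Kcnj13 and Clic6 step down on the same 4 arrays.

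All 4 Ttr probe sets separated the classes, at 9.99 to 10.88 against 3.94 to 7.25 for the dimmest of them. The dimmer of the Kl probe sets lay below the filter and overlapped, at 0.71 to 1.17 against 0.52 to 0.94. The other Clic6 probe set read 4.05 to 5.29 against 2.21 to 3.39. Apart from the dim Kl probe set, every probe set of the 5 markers separated the classes.

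Over all genes, 29 were at least 1 log2 unit higher in the high class with no overlap of arrays, which is 0.229% of the 12672 genes, and 0 were lower by that measure (0%). The rule that made the classes used these arrays, so nothing is read from these percentages. The filter took the mean over 12 arrays, 8 of them high, so genes high only in the low arrays pass it less easily. Some of the 29, such as Kcne2, Kl and Cldn1, passed through their high arrays, with every low array under the filter's level of 1.58. Nothing is therefore read from the counts of higher genes against lower genes. Without a size limit, 63 genes were higher with no overlap (0.497%) and 2 were lower (0.0158%). The median difference of all genes was -0.01, and 46.1% of genes lay above 0. Of the 29 genes, 24 were on the lists of choroid plexus genes and 5 were not: Prr32, Defb11, Col8a1, Mdfic and Smim22. Of the 63, 34 were on those lists, 2 on the list of motile cilia and 0 on any of the other lists. Smim22 (1.07) was the last gene past 1 log2 unit, and Sema3b and Trpv4 (0.96 each) were the nearest below it.

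**Figure D2:**
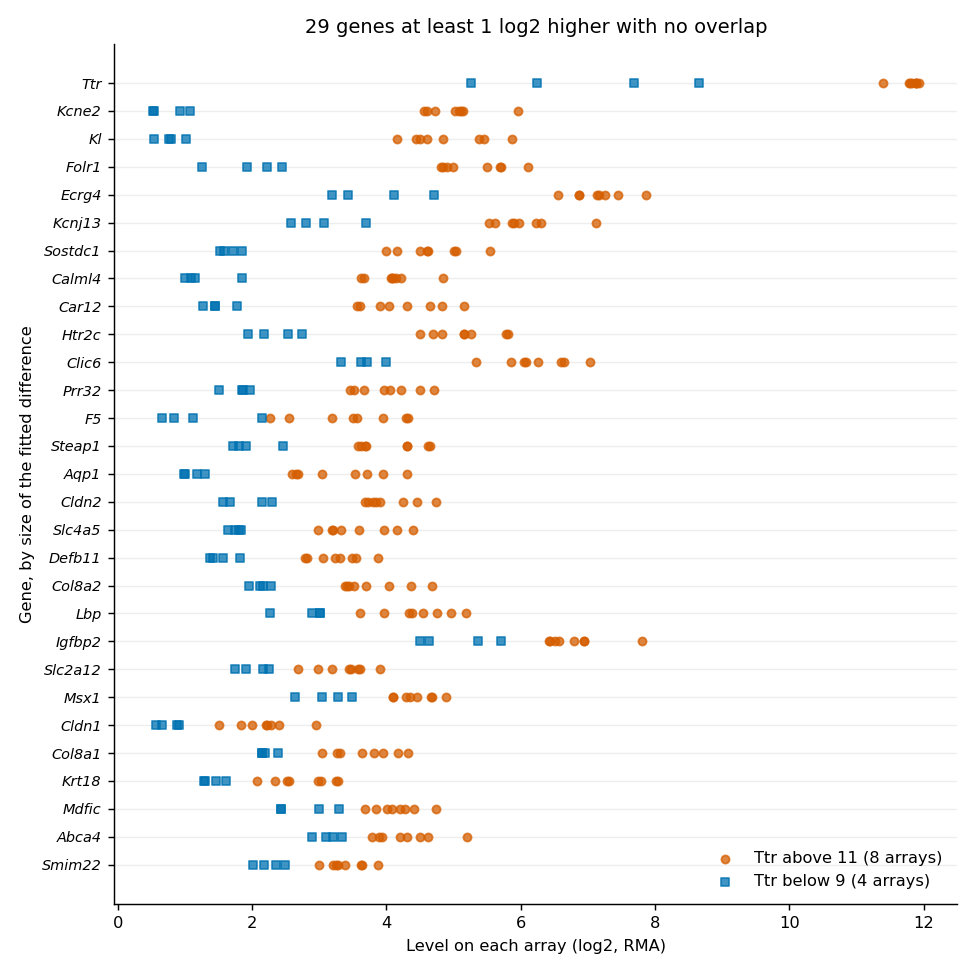
Log2 level after RMA (x axis) of each of the 29 genes that were at least 1 log2 unit higher with no overlap (y axis, by size of the fitted difference), with 1 point per array. Orange circles are the 8 arrays with Ttr above 11 and blue squares the 4 arrays with Ttr below 9. Every circle lies to the right of every square of its gene, with the narrowest gap for F5, at 2.15 against 2.26.

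Genes for secreted and carrier proteins included Ttr and Kl. Of 25 listed, 22 were above the filter, 18 of these lay above 0, and 9 separated the classes, 8 of them by at least 1 log2 unit. The median of the 22 was 0.34. The fitted difference of Ttr, the gene that made the classes, was 4.62 ± 0.51 log2 units (SE), and that of Kl was 3.95 ± 0.30. Ecrg4, a secreted peptide precursor of the choroid plexus, read 6.55 to 7.87 (median 7.15) in the high arrays and 3.19 to 4.72 in the low arrays, a difference of 3.05 ± 0.26. Sostdc1, an antagonist of BMP and Wnt signalling, read 4.0 to 5.54 (median 4.62) against 1.52 to 1.86, a difference of 2.92 ± 0.27. Both genes thus left a wide empty interval between the classes.

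F5, coagulation factor V, left a narrow gap. Its high arrays reached from 2.26 to 4.32 and its low arrays from 0.65 to 2.15, and the difference was 2.14 ± 0.33. Col8a2, a chain of type VIII collagen (1.60 ± 0.24), Lbp, which binds lipopolysaccharide (1.56 ± 0.31), and Igfbp2, a carrier of insulin-like growth factors (1.52 ± 0.24), were also higher without overlap. Pcolce, which enhances procollagen processing, separated the classes by less (0.65 ± 0.18). Mia (0.46 ± 0.18) and Igf2 (0.33 ± 0.21), an insulin-like growth factor that leptomeninges also make, overlapped between the classes. Igf2 read 6.91 to 8.20 in the high arrays and 7.0 to 7.29 in the low arrays.

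Genes of ion and water transport included several that were near the bottom of the scale in the low arrays. Of 21 listed, 17 were above the filter, 13 of these lay above 0, and 7 separated the classes, 6 by at least 1 log2 unit, with a median of 0.23 over the 17. Kcne2, a potassium channel subunit of the apical membrane, read 4.56 to 5.96 (median 5.06) in the high arrays and 0.52, 0.93, 0.54 and 1.08 in the low arrays. The fitted difference was 4.14 ± 0.26, with all 4 low arrays under the filter's level. Car12, a carbonic anhydrase, read 3.57 to 5.15 (median 4.18) against 1.28 to 1.77, a difference of 2.61 ± 0.25. Aqp1, the water channel of the apical membrane, read 2.60 to 4.31 (median 3.29) against 0.98 to 1.30, a difference of 1.96 ± 0.34. All of these low values lay near or under the filter's level.

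Kcnj13 was higher by 2.96 ± 0.31, Clic6 by 2.42 ± 0.23 and Slc4a5, a sodium bicarbonate cotransporter, by 1.66 ± 0.26. Trpv4, a cation channel that responds to osmotic stress, was higher by 0.96 ± 0.23 without overlap. The other measured genes of the list overlapped. Car14, a membrane carbonic anhydrase, differed by 0.32 ± 0.14 and overlapped (4.83 to 5.79 against 4.54 to 5.11). Kcnq1, Kcna3 and Atp4a were below the filter.

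Genes of nutrient, vitamin and drug transport and receptors followed, with 22 of 29 above the filter, 20 of these above 0, and 7 separated, 5 by at least 1 log2 unit, at a median of 0.29. Folr1 was higher by 3.12 ± 0.28. Htr2c, the serotonin receptor 2C, read 4.51 to 5.82 (median 5.15) in the high arrays and 1.94, 2.17, 2.74 and 2.54 in the low arrays, a difference of 2.50 ± 0.22. Steap1, of the metalloreductase family, was higher by 2.07 ± 0.29, Slc2a12, a glucose transporter, by 1.24 ± 0.21, and Abca4, a retinoid transporter, by 1.09 ± 0.22. Slc16a8, a monocarboxylate transporter (0.74 ± 0.20), and Slc31a1, a copper transporter (0.67 ± 0.14), separated by less. Slc13a4, a sulfate transporter, overlapped narrowly, at 4.84 to 5.61 against 4.50 to 4.89 (0.50 ± 0.15). Slco1a5, Slc39a4, Slc28a3, Lrp2 and Lepr were below the filter, and of these Slc39a4, a zinc transporter, still separated the classes (0.29 ± 0.12).

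The group of junctions, keratins and cell surface proteins was the list in which every measured gene lay above 0. Of 20 listed, 17 were above the filter, and 9 separated the classes, 4 by at least 1 log2 unit, with a median of 0.53. Calml4, a calmodulin-like protein, read 3.63 to 4.85 (median 4.10) in the high arrays and 1.00 to 1.86 in the low arrays, a difference of 2.66 ± 0.22. Cldn2, the claudin of leaky epithelia, read 3.68 to 4.74 (median 3.88) against 1.56 to 2.31, a difference of 1.95 ± 0.22. Cldn1, a sealing claudin, read 1.51 to 2.96 (median 2.22) against 0.58 to 0.91, a difference of 1.16 ± 0.19. None of the 3 overlapped between the classes.

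Keratins of simple epithelia were higher too. Krt18 was higher by 1.14 ± 0.22 and its partner Krt8 by 0.82 ± 0.17, both without overlap. Perp, a desmosome protein (0.80 ± 0.18), Cab39l (0.79 ± 0.13), Spint2, a protease inhibitor (0.53 ± 0.13), and Cgnl1, a junction protein (0.33 ± 0.10), were also higher without overlap. Tmem72 overlapped, at 2.03 to 3.24 against 1.76 to 2.14 (0.59 ± 0.22). Cdh3, Msln and Tmprss11a were below the filter, and of these Tmprss11a separated the classes (0.35 ± 0.11).

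Transcription factors had the smallest median of the 5 choroid lists, 0.02 over 10 of 13 genes. Only 5 of the 10 lay above 0, and 2 separated the classes. Msx1, a homeobox factor of the dorsal midline, read 4.10 to 4.90 (median 4.40) in the high arrays and 2.63 to 3.50 in the low arrays (1.20 ± 0.17). Otx2, a homeobox factor that the choroid plexus needs for its development, read 5.26 to 5.77 (median 5.47) against 4.59 to 5.15 (0.50 ± 0.12). Foxj1, the regulator of motile cilia, overlapped (0.39 ± 0.16), and Tcf7l2 (-0.24 ± 0.14), Rfx2 (0.24 ± 0.18) and Hes1 (-0.18 ± 0.19) did too. Lmx1a and Lmx1b, roof plate factors, were below the filter.

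Of all 108 genes on the choroid lists, 88 were above the filter and 34 of these, 38.6%, were higher with no overlap. Over all 12672 genes that share was 0.497%, which also stands beside the counts of the single choroid lists above. The lists were chosen with earlier results of these data known, and a choroid gene made the classes. Both shares are therefore given as a description. The other 54 did not separate the classes in the higher direction.

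Genes outside the lists also separated. Prr32 (2.18 ± 0.25) read 3.46 to 4.71 in the high arrays and 1.51 to 1.97 in the low arrays. Defb11, a defensin family member (1.66 ± 0.20), Col8a1, the other chain of type VIII collagen (1.16 ± 0.11), Mdfic (1.14 ± 0.17) and Smim22 (1.07 ± 0.18) were higher as well. Col8a1 had the smallest SE of the 29, with high arrays at 3.04 to 4.32 and low arrays at 2.16 to 2.38. The genes that were lower without overlap were Ext1, which builds heparan sulfate (-0.37 ± 0.10), and Pfn1, an actin-binding protein (-0.22 ± 0.11). Ext1 read 4.95 to 5.37 in the high arrays and 5.44 to 5.57 in the low arrays. These falls were small beside the rises above.

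Other probe sets of the same genes mostly read the same way. Above the filter, 12 further probe sets belonged to 9 of the 29 genes, and 8 of the 12 separated the classes, 7 by at least 1 log2 unit. A further Sostdc1 probe set differed by 3.84 and a further F5 probe set by 1.43. The probe sets that overlapped were of Cldn2 (0.12), Col8a1 (0.87), Msx1 (0.44) and Slc2a12 (0.26), so for these genes the separation rests on the brighter probe set. Among 4282 probe sets above the filter with no gene symbol or several, 10 separated the classes and 4 of these by at least 1 log2 unit.

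Promoter sequence was taken from RefSeq for GRCm38.p6, as the 250 bases before each annotated start, for 24 of the 29 genes (27 windows). These 3 windows are shown because Kl and Kcnj13 are markers of the comparison and Abca4 held the OTX2 core while Otx2 itself separated the classes. Capitals mark a searched motif: the OTX2 core TAATCC on either strand (GGATTA as printed for Abca4) and the TATA box TATAAA, also on either strand. The windows are Kl chr5:150952357-150952606 on the plus strand, Kcnj13 chr1:87394730-87394979 on the minus strand and Abca4 chr3:122044210-122044459 on the plus strand, each printed 5′ to 3′ along the gene.
Kl: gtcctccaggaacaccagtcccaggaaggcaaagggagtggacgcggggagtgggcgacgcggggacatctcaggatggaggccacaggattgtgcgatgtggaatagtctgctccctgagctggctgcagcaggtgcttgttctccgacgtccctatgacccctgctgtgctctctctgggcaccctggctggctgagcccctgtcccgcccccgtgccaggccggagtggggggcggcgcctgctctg
Kcnj13: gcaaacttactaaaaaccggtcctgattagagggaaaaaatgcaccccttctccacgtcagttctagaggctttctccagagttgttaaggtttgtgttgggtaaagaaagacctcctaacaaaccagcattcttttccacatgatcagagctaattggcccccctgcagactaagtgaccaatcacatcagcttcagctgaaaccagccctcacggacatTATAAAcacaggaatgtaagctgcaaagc
Abca4: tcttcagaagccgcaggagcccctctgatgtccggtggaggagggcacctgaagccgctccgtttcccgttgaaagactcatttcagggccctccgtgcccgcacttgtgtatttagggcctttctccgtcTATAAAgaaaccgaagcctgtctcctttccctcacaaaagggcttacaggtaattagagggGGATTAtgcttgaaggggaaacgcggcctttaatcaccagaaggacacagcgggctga
The OTX2 core occurred in 1 of the 27 windows (3.7%) and in 6.25% of all 32851 windows. The forkhead core TGTTTAC on either strand, the motif of Foxj1 and its relatives, occurred in 0 of the 27 and in 3.17% of all windows. The letters of the TATA box, on either strand, occurred in 4 of the 27 (14.8%), those of Kcnj13, Abca4, Slc4a5 (on the opposite strand) and Cldn2, and in 12.4% of all windows. The motifs do not overlap each other. A match is a description of letters in this window and marks no bound site, and a window without one says nothing about the factor. For Ttr, Folr1, Sostdc1, Clic6 and Lbp no window was used here.

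Lists for the other cells that a cerebellar dissection can hold were read next to the choroid lists. Motile cilia and ependymal genes had 16 of 36 above the filter and 13 of these above 0, with a median of 0.22. In this list Pifo, a cilium protein, read 2.08 to 2.67 against 1.39 to 1.73 (0.68 ± 0.11), and Cfap126 was higher by 0.54 ± 0.16. Dynlrb2 (0.62 ± 0.12) and Rsph1 (0.55 ± 0.19), further cilium genes, overlapped. Choroid plexus epithelium and ependyma both carry cilia, and which of them held these transcripts was not tested. Rsph9, a radial spoke gene that was not on the list, separated the classes (0.69 ± 0.13).

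The remaining lists held 0 genes that separated the classes in either direction. Over all genes 0.497% were higher and 0.0158% lower without overlap, so a count of 0 says little for lists of this size. Meningeal fibroblast and matrix genes had a median of 0.04, with 19 of 29 above 0. The mean level over that list was 4.19 to 4.68 in the high arrays and 4.28 to 4.49 in the low arrays. Slc47a1, a transporter of leptomeninges, differed most (0.54 ± 0.28) and read 2.10 to 3.94 against 2.43 to 2.82. Macrophage genes of the choroid plexus and brain borders, with genes of fenestrated vessels, had a median of -0.05 (4 of 11 above 0). Plvap, which forms the diaphragms of fenestrated capillaries, differed by -0.26 ± 0.16. The measured capillary and macrophage genes lay at -0.27 to 0.15, and their arrays overlapped. Most of the macrophage genes were dim in both classes, such as Mrc1 (class means 1.61 high and 1.69 low), so a shift in them could be missed. Plvap was brighter (5.56 and 5.97). Cd163, Lyve1, H2-Ab1, Esm1 and Cd209f were below the filter. Endothelial and mural genes had a median of 0.14 with 19 of 23 above 0, and Kdr, a receptor of vascular endothelial growth factor, differed by 0.34 ± 0.12.

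Blood genes were few, with 6 of 15 above the filter, a median of 0.20 and 4 above 0. S100a9 and S100a8, which neutrophils carry, differed by 0.82 ± 0.12 and 0.71 ± 0.22, and their arrays overlapped. The array mean of that list was 3.39 to 4.33 in the high arrays and 3.52 to 3.90 in the low arrays. Alas2, which red cell precursors use for heme, differed by 0.31 ± 0.20.

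The measured genes of neighbouring brain regions gave no shift of the same kind, but few were measured. Of 33 brainstem genes listed, only 10 were above the filter, and of 11 midbrain roof genes only 5 were. The genes below the filter, most Hox genes of the list among them, were not read. Genes of the brainstem next to the cerebellum had a median of -0.07 (3 of 10 above 0), and Th, the tyrosine hydroxylase of catecholamine neurons, differed by 0.35 ± 0.49. Its high arrays spread from 1.65 to 4.73 and its low arrays from 2.14 to 2.84. Genes of the midbrain roof had a median of 0.08 (3 of 5 above 0), with Sox14 at 0.19 ± 0.13. Levels of both lists overlapped between the classes.

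Levels of marker genes for the cells of the cerebellum itself overlapped between the classes. Purkinje cell genes had a median of 0.03 (18 of 27 above 0), and Pcp2, a Purkinje cell protein, read 10.29 to 10.66 in the high arrays and 10.55 to 10.72 in the low arrays. Granule cell genes had a median of -0.01 (7 of 17 above 0), and Gabra6, the GABA receptor subunit of granule cells, read 10.38 to 10.58 against 10.49 to 10.58. Slc17a7, a vesicular glutamate transporter, differed by -0.48 ± 0.26. The labelled tissue thus carried its defining markers on all 12 arrays.

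Glial lists lay mostly below 0. Astrocyte and Bergmann glia genes had a median of -0.12 (1 of 17 above 0), with Gfap, an intermediate filament, at -0.42 ± 0.17 and Sox9 at 0.30 ± 0.12. Oligodendrocyte genes had a median of -0.14 (3 of 19 above 0), and Mog, a myelin protein, read 5.13 to 6.34 against 5.02 to 6.64 (-0.64 ± 0.24). Microglia genes had a median of -0.18 (3 of 23 above 0), and P2ry12, a purinergic receptor of microglia, read 2.4 to 3.52 against 2.94 to 3.60 (-0.51 ± 0.14). The ranges overlapped in each case.

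Lists for the state of the tissue at dissection were also read. Glucocorticoid-responsive genes had a median of -0.23 (2 of 18 above 0), with Pdk4, a kinase of pyruvate dehydrogenase, at -0.53 ± 0.13. Immediate early genes, which neuronal activity induces, had a median of 0.06 (12 of 20 above 0). In that list Per2, a clock gene, differed by -0.79 ± 0.35 and read 3.30 to 5.19 against 4.47 to 5.46. Cytosolic ribosomal protein genes had a median of -0.08 (1 of 22 above 0). The mean 18S ribosomal RNA signal was 8.63 to 10.54 in the high arrays and 8.56 to 10.27 in the low arrays, and the phe spike-in control 1.62 to 3.85 against 2.14 to 3.52. These measures overlapped between the classes, and their part in the differences was not tested. They did not overlap by labelled group. The 118Q knockin arrays read 9.23, 8.63 and 8.56 for 18S, and all other arrays 9.66 to 10.54. For phe the 118Q knockin arrays read 3.42, 3.85 and 3.52, and all other arrays 1.62 to 3.28. The part of these measures in the 118Q knockin comparison below was not tested either.

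**Figure D3:**
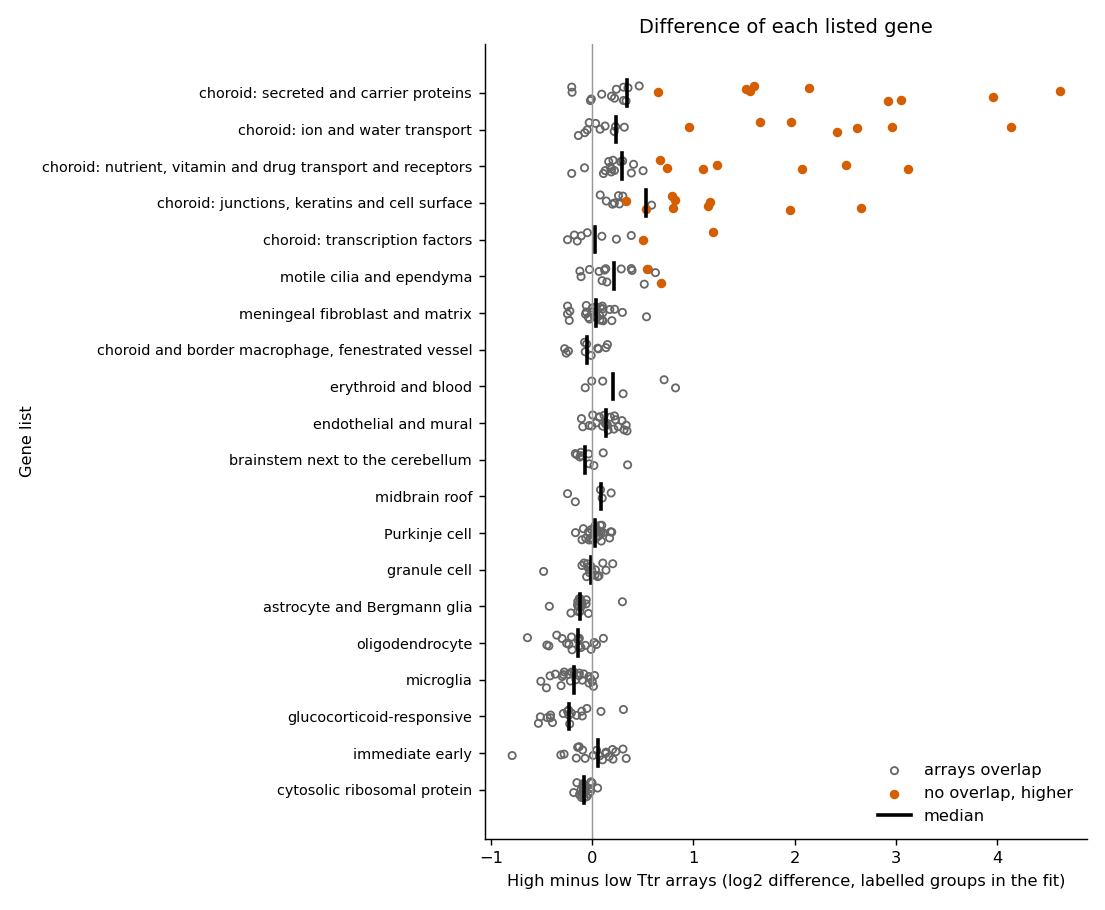
Fitted high minus low difference in log2 units (x axis) of every gene above the filter on each list (y axis), with 1 point per gene and a black bar at the median of the list. Filled orange points are genes higher with no overlap of arrays, and they occur on the 5 choroid lists and, for Pifo and Cfap126, on the list of motile cilia.

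The labelled comparisons were then read with the classes in view. Ttr was 11.90 ± 0.03 (SD, n = 3) in the wild type of the 11Q line and 8.25 ± 3.30 in its knockin, a difference of -3.65. The two-sided exact permutation p was 0.1, and no smaller p can arise from 3 arrays against 3. In the 118Q line the wild type was 9.99 ± 3.24 and the knockin 10.61 ± 1.70, a difference of 0.63 (exact permutation test, p = 1.0). That difference had no settled direction: dropping wild type replicates 1, 2 and 3 in turn gave 1.58, -1.24 and 1.55, and dropping knockin replicates 1, 2 and 3 gave 0.04, 0.24 and 1.60. The 11Q difference was -2.16 without knockin replicate 2 and -5.43 without knockin replicate 3. The wild types of the lines differed by -1.91 (118Q minus 11Q, exact permutation test, p = 0.3). Knockin against wild type over both lines gave -1.51 (exact permutation test, p = 0.305). In the 11Q line every knockin array lay below the wild type arrays, replicate 3 narrowly so, at 11.79 against 11.88. In the 118Q line the ranges overlapped.

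In the 11Q line, the genes that separated the classes carried the largest falls. Of the 20 genes with the largest falls in the 11Q knockin, 19 were among the 29 genes and 17 were on the choroid lists. All 29 lay below 0, from -3.65 (Ttr) to -0.93 with a median of -1.64, with standard errors of 0.40 to 1.60. Kl differed by -3.09, Kcne2 by -3.09, Folr1 by -2.72, Htr2c by -2.47, Kcnj13 by -2.17 and Clic6 by -2.02. None passed over all genes, with a smallest adjusted p of 0.939 by limma. The 29 genes were chosen on these arrays, 2 of the 3 knockin arrays are low and 0 of the 3 wild type arrays is, so these differences are given as a description.

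With the class as a covariate, the same 29 genes differed by -0.81 (Col8a1) to -0.04 (Steap1) in the 11Q knockin, with a median of -0.42 and standard errors of 0.15 to 0.67. Ttr differed by -0.58, Kl by -0.46, Folr1 by -0.65, Kcnj13 by -0.20, Clic6 by -0.41 and Htr2c by -0.80. Among the 20 largest falls 0 were then of the 29, and the largest fall was that of Lamp5 (-1.75). The smallest adjusted p among the 29 was 0.595. In this line only the high replicate 3 of the knockin can be set against wild type arrays of the same class, and the low knockin arrays enter after adjustment by the class difference fitted over the 3 mixed groups.

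The 88 choroid genes are not a separate reading, since 34 of them separated the classes and only knockin arrays are low in the 11Q line. Their differences without and with the class are therefore given as a description. Without the class, 71 lay below 0 in the 11Q knockin, at a median of -0.31, where 59.3% of all genes lay below 0 at a median of -0.04. By limma 0 were called (0% of all genes were called in either direction). An unadjusted p below 0.05 was held by 32 of the 88 and by 536 of all 12672 genes. With the class, 65 lay below 0, the median was -0.11 and 0 were called. An unadjusted p below 0.05 was then held by 6 of the 88 and by 406 of all genes.

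In the 118Q line each group held 1 low array of 3, so the class covariate left every knockin difference as it was and changed only the standard errors. Over the choroid lists, 57 of 88 genes lay below 0 at a median of -0.10, where 40.02% of all genes lay below 0 at a median of 0.06. By limma 0 choroid genes were called, and their smallest adjusted p was 0.0693. An unadjusted p below 0.05 was held by 14 of the 88 and by 2365 of all 12672 genes. Nothing about the choroid genes is read from the 14. The median was 0.09 without wild type replicate 1 and 0.08 without knockin replicate 3, and it was -0.31 without wild type replicate 2, -0.21 without knockin replicate 1 and -0.19 without knockin replicate 2. Without knockin replicate 1, 5 choroid list genes were called: Atp1b1, Penk, Slc23a2, Slc4a10 and Steap2, named after their values were seen. Over all genes that setting was counted only in the fit with the class, where 475 of 12672 genes were called. The 5 are therefore not read as a change of choroid genes. Of the 29 separating genes 23 lay below 0, from -0.96 (F5) to 0.63 (Ttr), with a median of -0.20. The standard error of Ttr fell from 1.60 to 0.58 with the class and that of Kl from 1.33 to 0.35.

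**Figure D4:**
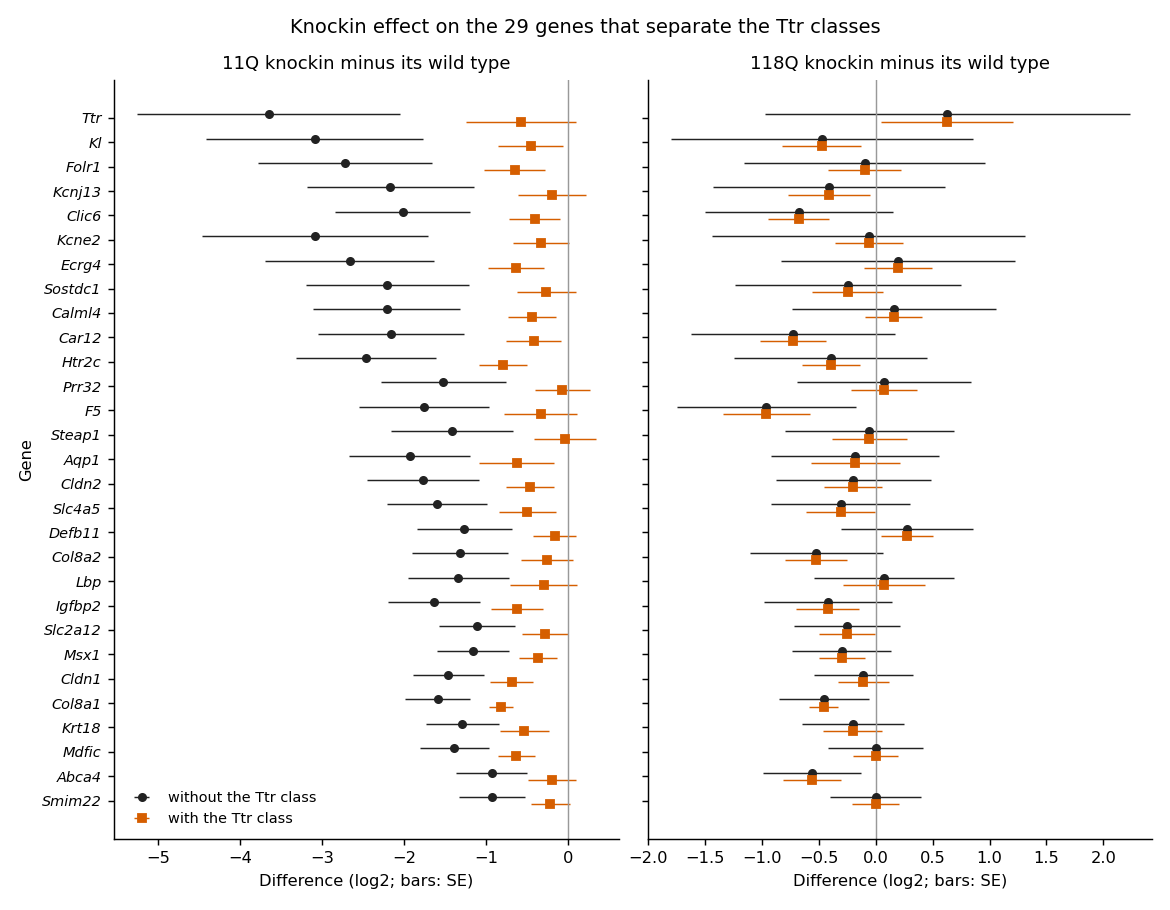
Knockin minus wild type difference in log2 units (x axis, bars are SE) of the 29 genes (y axis) in the 11Q line (left) and the 118Q line (right). Black circles are from the fit without the Ttr class and orange squares from the fit with it. In the 11Q line the points move from a median of -1.64 to -0.42, and in the 118Q line they stay in place while the bars shorten.

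Genes called in the 118Q knockin were few. That 0 of them were on the choroid lists says nothing about those lists at so small a share of all genes. The arrays of this knockin also had the lowest 18S and highest phe signals of all 12 arrays, as given above. Without the class limma called 24 genes at an adjusted p below 0.05, 10 higher (0.0789%) and 14 lower (0.11%). With the class it called 10, of which 3 were higher (0.0237%) and 7 lower (0.0552%), and 9 genes were called in both fits. Fgf14, a regulator of sodium channels, fell by 1.64 (adjusted p = 0.00521 without and 0.00974 with the class), and Tuba8, an alpha tubulin, fell by 1.20 (0.00532 and 0.00974). Cenpb, a centromere protein, rose by 1.00 (0.0316 and 0.00986), and Stk17b, a kinase, fell by 0.99 (0.0316 and 0.0473). With the class, the call of Fgf14 ended when the 118Q line lacked replicate 1 or 3 of its wild type or replicate 3 of its knockin (adjusted p = 0.0525 to 0.0645). That of Tuba8 ended in the absence of wild type array 1 or knockin array 3 (0.0602 and 0.0645). That of Cenpb ended when wild type array 1, or knockin array 2 or 3, was dropped. That of Stk17b ended when any 1 of the 12 arrays was left out, except 11Q wild type replicate 3 and 118Q knockin replicate 1. The count with the class was 475 without knockin replicate 1, and 3, 5 and 4 without wild type replicate 1, knockin replicate 2 and knockin replicate 3.

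The 15 genes called only without the class had adjusted p-values of 0.0513 to 0.0597 with it. Their differences did not move, and their standard errors changed by a factor of 0.946 to 1.06. Slc1a6, the glutamate transporter of Purkinje cells, differed by -1.13 (adjusted p = 0.0552 with the class), Atp2a2, a calcium pump, by -0.69 (0.0513), and Rps18, a ribosomal protein, by 0.63 (0.0527). Trem2, a receptor of microglia, differed by 0.77 in both fits. Their own high minus low differences were small, such as 0.06 ± 0.18 for Slc1a6 and 0.02 ± 0.12 for Trem2.

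S100a9 was the gene called only with the class. Its levels in the 118Q knockin were 3.66, 3.83 and 3.04 and in the wild type of that line 2.64, 1.81 and 2.87, where the last of the knockin values and the middle wild type value come from the low arrays. In the 11Q line the knockin read 1.71, 1.75 and 2.55 and the wild type 0.99, 1.47 and 1.49. The knockin arrays lay above the wild type arrays in both lines. The 118Q difference was 1.07 ± 0.30 without the class (adjusted p = 0.104) and 1.07 ± 0.14 with it (adjusted p = 0.0138). The call ended without wild type replicate 1, wild type replicate 2, knockin replicate 2 or knockin replicate 3 of the line. In the 11Q knockin limma called 0 genes in either fit (0%), with 536 genes at an unadjusted p below 0.05 without the class and 406 with it.

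Within the 8 high arrays, the markers followed Ttr to different degrees. These correlations are across arrays of 4 labelled groups, and 4 were computed. Clic6 had a Pearson r of 0.82 with Ttr (exact permutation test, p = 0.00317, adjusted p = 0.0127 over the 4) and a Spearman rho of 0.78 (p = 0.0301, adjusted p = 0.0651). Kl had an r of 0.65 (exact permutation test, p = 0.0549, adjusted p = 0.110) and a rho of 0.77 (p = 0.0325, adjusted p = 0.0651). Folr1 had an r of 0.50 (exact permutation test, p = 0.175, adjusted p = 0.234) and a rho of 0.53 (p = 0.184, adjusted p = 0.184). Kcnj13 had an r of 0.26 (exact permutation test, p = 0.437, adjusted p = 0.437) and a rho of 0.59 (p = 0.134, adjusted p = 0.179). The arrays were chosen by their Ttr level and permuted without regard to labelled group, so these values describe the 8 arrays and nothing further is read from them.

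Ttr itself spanned only 11.39 to 11.93 in these arrays, and 118Q knockin replicate 2, at the lower end, lay apart from the others. Without that array and the highest, wild type 11Q replicate 1, r was 0.80 for Clic6 (exact permutation test, p = 0.0528), 0.60 for Kl (p = 0.231), 0.38 for Folr1 (p = 0.375) and 0.71 for Kcnj13 (p = 0.0694). Taken as deviations from the mean of the high arrays of the labelled group, r was 0.68 for Clic6, 0.36 for Kl, 0.64 for Folr1 and -0.16 for Kcnj13. Groups with too few high arrays for a value of their own were not read apart.

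**Figure D5:**
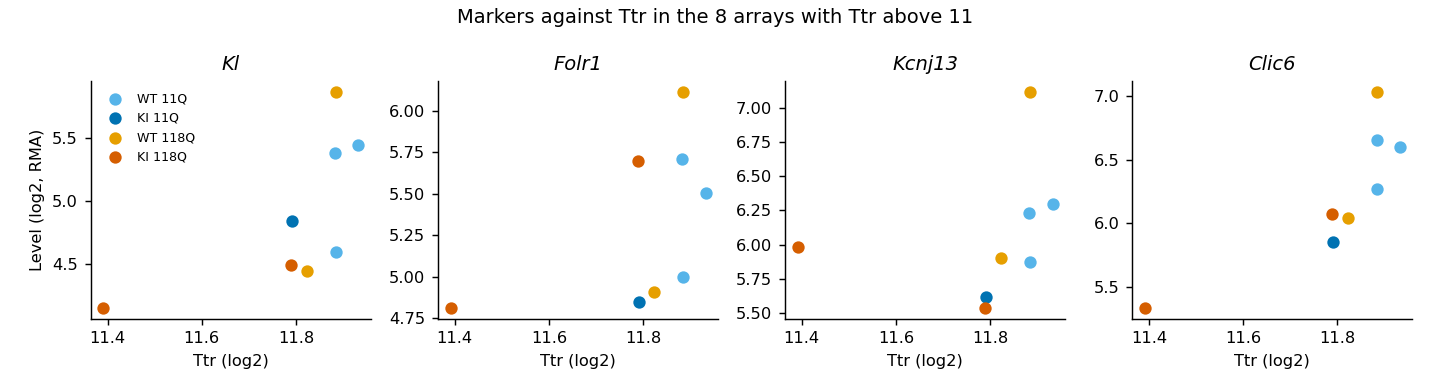
Log2 level of Kl, Folr1, Kcnj13 and Clic6 (y axes, each with its own scale) against log2 Ttr (x axis) in the 8 high arrays, coloured by labelled group. The lowest Ttr value, 11.39, is 118Q knockin replicate 2, which also holds the lowest Kl, Folr1 and Clic6 of the 8, and the highest values of all 4 markers are in wild type 118Q replicate 1.

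The markers were also set against each other. Over their 6 pairs, r was highest between Clic6 and Kl (0.91, exact permutation test, adjusted p = 0.0106) and between Clic6 and Folr1 (0.82, exact permutation test, adjusted p = 0.0234). It was lowest between Kcnj13 and Folr1 (0.65, exact permutation test, adjusted p = 0.0645), and that value was -0.00 without the 2 arrays farthest from the median. Wild type 118Q replicate 1, the array with the highest level of each marker, was 1 of those 2 arrays for every pair. These arrays too were chosen by Ttr and permuted without regard to labelled group, so the values describe the 8 arrays only.

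As a description across genes, which are not independent replicates, 16% of all genes had an r above 0.5 with Ttr over the 8 high arrays. The share was 34.5% of the 87 choroid genes other than Ttr and 50% of the 28 separating genes other than Ttr, with medians of 0.29 and 0.50 against -0.13 for all genes. The genes with the highest r were not choroid genes. They were Sdcbp, Trps1, Plekhd1 and Csad (0.98 each), Asap2, Slc32a1 and Slc1a6 (0.97 each), and Kcnab1, Dner and Ywhah (0.96 each). Slc1a6 and Dner are Purkinje cell genes, and Slc32a1 loads GABA into vesicles. Without 118Q knockin replicate 2 these values were 0.50 (Ywhah) to 0.92 (Asap2), so they rest in part on that array.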

How the data were processed

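The authors deposited log2 expression values per probe set for 12 arrays, made with RMA, per the submitters' processing notes. For its version and settings, no value was given in the sources used here. No further normalization was applied.

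Of 45101 probe sets, 34958 had 1 gene symbol in the array annotation, 932 had several and 9211 had none listed. Probe sets in the lowest 40% by mean over all arrays were removed, and each symbol was represented by its brightest probe set on average. Differences and standard errors came from limma 3.58.1 in R 4.3.3, on all 12 arrays. The model had a mean for each of the 4 labelled groups, and with or without a term for the Ttr class (log2 level above 11 or below 9). Residual degrees of freedom were 7 with the class and 8 without. The high against low contrast was described by its difference, its SE and the overlap of arrays, with no test. Knockin comparisons were two-sided and were called where the p adjusted by Benjamini-Hochberg across the 12672 genes was below 0.05. Single values and correlations were tested by exact permutation of arrays, two-sided. The steps were tested on simulated data.

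The members, gene lists and tests were chosen with earlier results of these data known. The text names the 5 markers, the 25 largest rises and 10 largest falls among genes without overlap, up to 6 genes of each choroid list and 4 of every other list by size, and up to 10 genes called by genotype. Others are named where a count of 5 or fewer needed them or where they lay next to a threshold, after their values were seen. Same-numbered knockin and wild type arrays did not deviate together (correlations of -0.17 to 0.19), so the replicate numbers were not used as pairs. Alternatives covered the filter, the choice of probe set, scaling, variance model, array weights, covariates, thresholds and leaving out each array.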

Additional observations from a re-analysis of the deposited data

Results flagged for a closer look

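In 4 of 54 groups of arrays checked for a value far from the rest, a single array stood apart. The cut used flags about 1 in 20 independent groups, but these groups reuse the same arrays. Their genes were also chosen because they separate the classes, with Ttr among them. That rate therefore does not apply here, and the 4 are given as a description. Ttr in the high class was 11.39 in 118Q knockin replicate 2, where the nearest array read 11.79. Kcne2 in the high class was 5.96 in wild type 118Q replicate 1, where the nearest array read 5.15. Igfbp2 in the high class was 7.81 in the same array, against 6.95 for the nearest. Lbp in the low class was 2.27 in 11Q knockin replicate 1, against 2.89 for the nearest. Wild type 118Q replicate 1 also had the highest Kl, Folr1, Kcnj13 and Clic6 of all arrays, as given above. The difference between the 118Q and 11Q knockin effects, fitted with the Ttr class, passed in 0 genes by limma.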

How the results depend on the processing

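The direction of the high against low difference of Ttr, Kl, Folr1, Kcnj13 and Clic6 was the same under all 24 alternatives run for each. Each alternative used Ttr, or a class from the other markers that was the same on every array. None of these markers overlapped between the classes, so the constant direction followed from the classes and nothing is read from it. Only the size could move, and that of Ttr reached 5.46 without 118Q knockin replicate 3. The 29 genes higher in the high class became 17 with the lowest 60% of probe sets removed, 48 at a difference of at least 1.5-fold and 14 at 2 log2 units, and ranged from 26 to 33 when arrays were left out in turn. The count of lower genes was 0 in each of these. There were 28 higher and 0 lower genes without the wild type arrays of the 11Q line, which are all high, an alternative chosen after seeing the data. Those arrays do not inform the fitted difference. The counts could thus move only through the filter, the probe set chosen or the overlap, and nothing is read from their closeness. Genes called in the 118Q knockin with the class, 10 as reported, were 37 with the lowest 60% removed, 31 with the mean of probe sets, 17 with arrays centred, 39 with quantile normalization, 125 with an intensity trend, 35 with continuous Ttr, 24 with no class and 271 at an adjusted p below 0.1. They were 4081 with array weights, where 2 of the weight fits stopped before they converged, and 0 by limma when the model held the 2 compared groups alone (1682 genes at an unadjusted p below 0.05). Leaving out arrays gave 3 to 475. The cause of these shifts was not tested. In the 11Q knockin with the class, array weights gave 3 genes (Col8a1, Pdk4 and S100a9), an adjusted p below 0.1 gave 1 (S100a9), and leaving out arrays 0 to 1 (Comp, without wild type 118Q replicate 1). Choroid genes called in the 118Q knockin were 1 (Steap2) with the lowest 60% removed, with an intensity trend and at an adjusted p below 0.1. They were 12 with array weights, and 0 to 5 when arrays were left out. The larger of these counts came in settings with 4081 and 475 genes called over all genes with the class. They are not read as changes of choroid genes. Among the high arrays, r with Ttr was 0.36 for Kl and -0.16 for Kcnj13 within labelled groups, and 0.71 for Kcnj13 without the 2 farthest arrays. The values within groups rest mostly on the 2 high arrays of the 118Q knockin. Leaving out single arrays gave 0.17 to 0.66 for Kcnj13, 0.61 to 0.73 for Kl, 0.36 to 0.58 for Folr1 and 0.77 to 0.89 for Clic6. Without single arrays, the Ttr difference between knockin and wild type was -1.24 to 1.60 in the 118Q line and -5.43 to -2.16 in the 11Q line.

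The replicate numbers did not pair the arrays. With a block for each number inside each line (replicate block), limma called 6 genes in the 118Q knockin with the class in place of 10, and Cenpb, Stk17b and S100a9 were not among them; Phxr4 was, named after its value was seen. Precision is limited by having 3 arrays per group, and markers near the bottom of the scale in the low arrays were measured close to background there.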
